A study of Drosophila melanogaster with 3 samples.

Results

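The genes described here encode the translation initiation and elongation factors of Drosophila melanogaster. They were chosen by name, as the protein-coding genes whose symbol starts with eIF or eEF followed by a digit, and there are 51 of them among 13945 protein-coding genes on the 6 chromosome arms analysed. The symbol eEF5 stands for the factor long called eIF5A. The data are chromatin immunoprecipitation followed by sequencing (ChIP-seq) of YL-1, a protein that binds the histone variant H2Av and belongs to the Domino/Tip60 chromatin remodelling machinery. The series has 1 group of 3 biological replicates: embryos of the strain YL-1-GFP, males and females mixed, aged between 0 and 24 h, carrying a stable insertion that makes YL-1 with GFP at its carboxy terminus, precipitated with an anti-GFP antibody. There is no second genotype, stage or treatment, so the comparisons are between genes, and every value is an average over all the cell types and stages in such a collection.

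Initiation starts when eIF2, bound to GTP, brings the initiator tRNA to the small ribosomal subunit, where eIF1, eIF1A and the many-subunit scaffold eIF3 are already in place. The eIF4 factors recognise the cap of the mRNA, unwind its leader and join it to that complex, after which eIF5 and eIF5B release eIF2 and bring in the large subunit. In elongation, eEF1 delivers each aminoacyl-tRNA and eEF2 moves the ribosome along the mRNA. Most of these factors are needed in every growing cell, and the fly genome also holds additional copies of several of them, some of which are known for roles in the male germ line.

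Promoter sequences of 9 factor genes, picked with and without the motifs searched, are given for genes with strong and weaker peaks and for copies without a peak. The stretches are in dm6 coordinates, read from the RefSeq copy of the Release 6 assembly, and end 30 bases into the transcript. Each starts 150 bases before the annotated start, or where a neighbouring transcript begins. The first 5 are genes with a peak, namely eIF3a (chr3R:4433866-4433964, minus strand), eEF1gamma (chr3R:29220022-29220201, plus strand), eIF3f1 (chr3R:4714153-4714332, minus strand), eIF2alpha (chrX:16446964-16447143, minus strand) and eIF4EHP (chr3R:24108931-24109110, minus strand). The copy eIF4E6 (chr3R:29027145-29027235, minus strand) also has a peak, while eEF1alpha2 (chr3R:31738318-31738497, plus strand), eIF4E3 (chr3L:8229074-8229253, plus strand) and eIF3d2 (chr3R:12194982-12195161, minus strand) have no IDR peak. Capitals mark the DNA replication-related element (DRE, TATCGATA, the site of the factor DREF) and the core of Ohler motif 1 (GGTCACAC or its complement GTGTGACC). They also mark Ohler motif 7 (CANCNCTNA or its complement TNAGNGNTG) and the TATA box (TATAAA or its complement TTTATA). The CTTT core of the TCT initiator, which is known from ribosomal protein genes, is marked on the gene strand only.
eIF3a: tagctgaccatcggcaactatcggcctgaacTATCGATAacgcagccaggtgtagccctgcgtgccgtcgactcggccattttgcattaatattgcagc
eEF1gamma: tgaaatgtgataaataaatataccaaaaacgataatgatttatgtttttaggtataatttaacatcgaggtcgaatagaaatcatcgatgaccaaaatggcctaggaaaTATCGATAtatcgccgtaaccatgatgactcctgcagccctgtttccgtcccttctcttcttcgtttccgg
eIF3f1: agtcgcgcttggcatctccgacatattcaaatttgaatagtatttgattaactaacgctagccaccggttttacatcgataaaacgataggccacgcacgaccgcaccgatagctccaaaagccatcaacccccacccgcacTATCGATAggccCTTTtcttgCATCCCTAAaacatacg
eIF2alpha: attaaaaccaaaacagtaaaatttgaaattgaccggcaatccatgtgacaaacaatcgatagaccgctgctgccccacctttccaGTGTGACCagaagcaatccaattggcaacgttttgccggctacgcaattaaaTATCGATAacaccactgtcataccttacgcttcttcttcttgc
eIF4EHP: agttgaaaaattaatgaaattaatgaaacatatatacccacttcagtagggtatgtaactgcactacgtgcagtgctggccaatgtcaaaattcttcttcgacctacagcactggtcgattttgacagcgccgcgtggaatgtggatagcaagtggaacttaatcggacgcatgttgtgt
eIF4E6: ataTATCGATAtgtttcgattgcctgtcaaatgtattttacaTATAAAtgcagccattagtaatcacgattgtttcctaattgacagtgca
eEF1alpha2: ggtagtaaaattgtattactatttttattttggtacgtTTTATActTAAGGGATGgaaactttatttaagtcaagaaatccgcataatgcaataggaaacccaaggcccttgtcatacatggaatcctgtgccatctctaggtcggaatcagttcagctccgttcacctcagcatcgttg
eIF4E3: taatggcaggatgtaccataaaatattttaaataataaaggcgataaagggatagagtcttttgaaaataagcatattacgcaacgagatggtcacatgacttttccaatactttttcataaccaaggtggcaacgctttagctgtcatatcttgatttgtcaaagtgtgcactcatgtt
eIF3d2: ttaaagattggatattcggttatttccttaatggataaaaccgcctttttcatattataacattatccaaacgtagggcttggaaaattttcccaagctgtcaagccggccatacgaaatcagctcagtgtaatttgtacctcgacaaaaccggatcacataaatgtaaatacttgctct
A DRE lies in 5 of these stretches and not in that of eIF4EHP, which has one of the strongest peaks. The summit of that peak is 223 bp upstream of the start, outside the stretch printed. The summits of eIF4E6 and eIF2alpha also lie outside their stretches. The unbound copy eEF1alpha2 holds the letters of the TATA box and of Ohler motif 7, both as complements. That TATA match lies 112 bases before the start. The stretches of eIF4E3 and eIF3d2 hold none of the motifs. The stretches were picked to show the motifs and say nothing of how often bound and unbound genes hold them, which is counted further on.

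YL-1 peaks stood at the promoters of 34 of the 51 factor genes (66.7%), against 33.4% of all protein-coding genes. A gene is called bound when a summit in the list thresholded by irreproducible discovery rate (IDR), the authors' measure of reproducibility, lies within 250 bp of any of its annotated start sites. The bound genes included all 3 subunits of eIF2, 11 of 16 eIF3 genes and the single genes for eIF6, eEF2 and eEF5. The signal value of a peak is the authors' own, and its median over the bound factor genes was 358 (range 168 to 903), against 252 over all bound genes. In a mixture of cells, binding in fewer cells and less binding per cell cannot be told apart, and embryos without the tagged protein were not analysed here. Their median rank was 897 of 5986 peaks, against 2255 for all bound genes. The strongest 10% of the peaks held 14 of the 34 (41.2%), and held 14.7% of all bound genes.

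The replicates gave similar counts. For each library, the 5986 regions of highest signal are called top regions, as many as the IDR list holds. Top regions stood at 31 factor genes (60.8%) in replicate 1, where the share of all genes was 32.8%. In replicate 2 they stood at 35 (68.6%, all genes 31.3%) and in replicate 3 at 35 (68.6%, all genes 32.3%). The mean share was 66.0% ± 4.53 for the factor genes and 32.1% ± 0.750 for all genes (SD, n = 3 each), so the lowest replicate of the factor genes was above the highest of all genes. Top regions of all 3 replicates marked 30 factor genes (58.8%), against 23.9% of all genes. At the other end, 8 factor genes (15.7%) had no region near a start site in the pooled list or in any replicate list, against 38.6% of all genes. The read depth behind these lists is unknown, since they give no read counts, and the 3 libraries enter the pooled call together, so the IDR list and the replicates are not independent of each other.

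**Figure D1:**
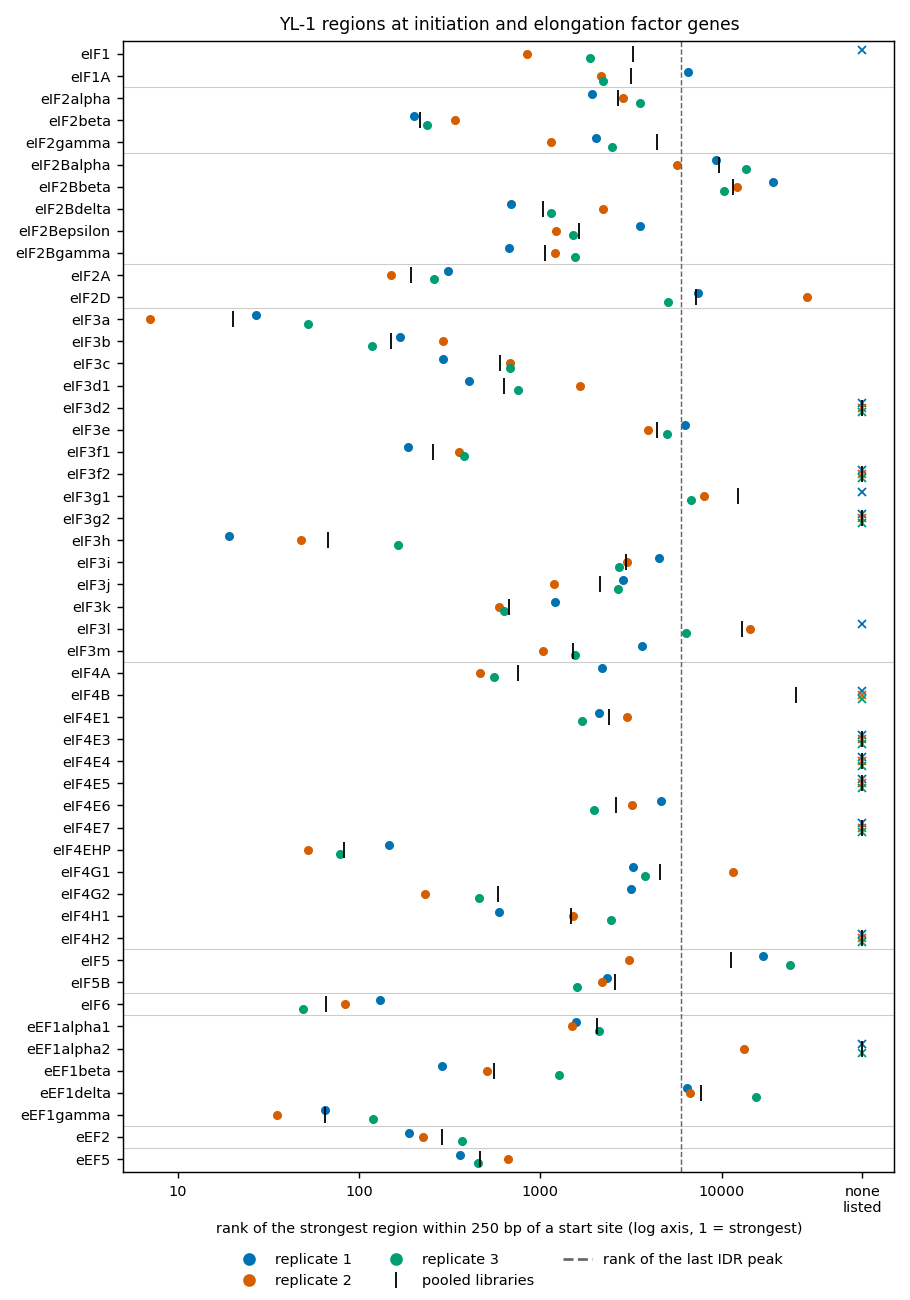
Rank of the strongest region within 250 bp of a start site of each factor gene (horizontal log axis, 1 is the strongest; a cross or tick at the right edge means that no region was listed), for the 3 replicates (coloured points) and the pooled libraries (black ticks). The dashed line is the rank of the last IDR peak, 5986; eIF3a, eIF3h, eIF4EHP, eIF6 and eEF1gamma lie under rank 100 in 2 of 3 replicates or more, while 8 numbered copies have no region in any list.

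The plot of ranks by gene shows how far the factors differ among themselves. From here on, a value given as a multiple of the median is a region's signal divided by the median signal of its own list, which makes the replicates comparable.

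Factors that bring the initiator tRNA and find the start codon were mostly bound, at unequal strength. The 3 subunits of eIF2 and the 5 of its exchange factor eIF2B gave 6 bound genes of 8, with a median signal of 311. That is 75%, against 33.4% of all genes. With each summit given to the nearest start it was 4 of 8, against 28.2% of all genes. The summits of eIF2Bdelta and eIF2Bepsilon were nearer to neighbours. The shares in the replicates were 75%, 87.5% and 75%. Strongest was eIF2beta (FBgn0004926, peak at chr3L:12526409-12526849), a subunit known from yeast to contact eIF5 and eIF2B, with 7.52, 6.29 and 7.92 times the median in replicates 1 to 3, or 7.24 ± 0.85 (SD, n = 3). Its summit lay 101 bp into the gene (signal 522, rank 218). The regions of eIF2Bdelta, a regulatory subunit of eIF2B, ranked 685, 2224 and 1139, with 3.45 to 5.57 times the median (IDR signal 339). Those of eIF2Bgamma, a subunit of its catalytic part, reached 5.62, 4.35 and 4.46 times the median (signal 338, rank 1057). The spread of eIF2beta did not overlap that of either eIF2B gene, and the values of the 2 eIF2B genes overlapped each other.

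The other bound genes of this group had lower IDR signals, although in replicate 2 the regions of eIF2gamma (4.40 times the median) and eIF2Bepsilon (4.31) were above that of eIF2Bdelta (3.45). Ranks of eIF2alpha, the subunit whose phosphorylation lowers initiation under stress, were 1939, 2877 and 3548 in the replicates (IDR signal 231). The catalytic subunit gene eIF2Bepsilon ranked 3532, 1226 and 1514 (IDR signal 285). The GTPase subunit gene eIF2gamma ranked 2033, 1146 and 2492 and had an IDR signal of 173 at the peak nearest its start. Its first transcripts begin at the same base as those of Su(var)3-9, a histone methyltransferase gene, so that their promoters are one and the signal cannot be divided between them. A second peak, 253 bp from a start of eIF2gamma, had a signal of 218. eIF1 and eIF1A, which keep the small subunit scanning, were bound with signals of 209 and 213. Neither had a top region in replicate 1, where eIF1 had no region within 250 bp and eIF1A ranked 6530. In replicates 2 and 3 the ranks were 848 and 1878 for eIF1 and 2152 and 2204 for eIF1A. eIF2A, known from mammals as an alternative factor that binds initiator tRNA, had a stronger peak at 5 bp from its start, with 6.87, 7.55 and 7.72 times the median.

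eIF3 included the strongest IDR peak of all factor genes, that of eIF3a. In replicate 1 eIF3h was stronger, and in replicate 3 eIF6 was (11.93 against 11.90 times the median). Of the 16 eIF3 genes 11 were bound (68.75%, against 33.4% of all genes), with a median signal of 397 and a median rank of 628. The strongest 10% of all peaks held 5 of the 11 (45.5%), and 14.7% of all bound genes. The replicate shares were 62.5%, 68.75% and 68.75%. At eIF3a (FBgn0037249, peak at chr3R:4433575-4434173), the largest core subunit, the signal was 12.04, 14.36 and 11.90 times the median (12.77 ± 1.38, SD, n = 3), with ranks of 27, 7 and 52. The IDR peak had a signal of 903 and rank 20, and its summit lay 21 bp upstream of the start, between the start and the DRE printed above. The divergent start of CG1074 is 70 bp from that of eIF3a. At eIF3h (FBgn0022023, peak at chr2L:5052547-5052954), a non-core subunit, the signal was 12.57, 10.09 and 8.67 times the median, with ranks of 19, 48 and 163. At eIF3b, a core subunit known from yeast to hold the small peripheral ones, it was 8.05, 6.47 and 9.48 times the median, with ranks of 168, 289 and 118. All 9 of these values were above the highest value of eIF2Bdelta or eIF2Bgamma.

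The remaining bound eIF3 genes ran from strong to marginal. eIF3f1 (signal 500), eIF3c (402), eIF3d1 (397) and eIF3k (391) ranked between 256 and 670 in the IDR list. eIF3m (295), eIF3j (258) and eIF3i (219) ranked between 1510 and 2973. The weakest, eIF3e, had a signal of 173 and ranks of 6289, 3949 and 4989, so it was outside the top regions of replicate 1. Genes for subunits of a single complex thus had promoter signals between 173 and 903. Unbound were eIF3g1 and eIF3l with weak regions, and the copies eIF3d2, eIF3f2 and eIF3g2 with none.

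The eIF4 genes were bound less often by count, 7 of 13, with replicate shares of 53.8%, 46.2% and 53.8% and a median signal of 298. At 250 bp the shares were close without the numbered copies listed further on: 5 of 6 eIF4 genes (83.3%) and 11 of 13 eIF3 genes (84.6%). With each summit given to the nearest start, these were 4 of 6 and 11 of 13. Strongest was eIF4EHP (FBgn0053100, peak at chr3R:24108866-24109405), a cap-binding protein that represses translation, with 8.30, 9.74 and 10.54 times the median and ranks of 146, 52 and 78. Its summit lay 223 bp upstream, the farthest of any bound factor gene, and was nearer to the start of CG18428 at 153 bp. Next were eIF4G2, described with the copies, and the helicase gene eIF4A, whose ranks were 2180, 466 and 555 (signal 376). The helicase cofactor gene eIF4H1 ranked 590, 1517 and 2450 (signal 298). The value of eIF4A was lowest in replicate 1 and that of eIF4H1 was highest there, so their order differed between libraries. Of the eIF4 genes, 2 had any IDR summit within 100 bp of a start (eIF4A and eIF4E1), and of the eIF3 genes 7 did. At that window the eIF4 share of 15.4% was below the 23.6% of all genes, where at 250 bp it was 53.8% against 33.4%. Of the copies 0 were bound at 100 bp, so outside the copies 2 of 6 eIF4 and 7 of 13 eIF3 genes were.

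Among the later factors, eIF6 (FBgn0034915, peak at chr2R:23850158-23850560), which keeps the large subunit from joining too early, had a signal of 724 and ranks of 130, 83 and 49. The values were 8.58, 8.84 and 11.93 times the median. eIF5B, the GTPase of subunit joining, was bound at 19 bp from a start with a lower signal of 236. eIF5, which triggers GTP hydrolysis on eIF2, was not bound, and its region ranked 16956, 3092 and 23812, within the top regions of replicate 2 but far below them in replicates 1 and 3.

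The elongation factor genes were bound except for one eEF1 subunit and one eEF1 copy. At eEF1gamma (FBgn0029176, peak at chr3R:29219932-29220394), a structural subunit of the exchange complex, the signal was 10.16, 10.36 and 9.42 times the median (9.98 ± 0.49, SD, n = 3), and the IDR summit (signal 728, rank 65) lay 4 bp upstream of the start. At eEF1beta, the exchange factor itself, it was 6.98, 5.65 and 4.79 times the median. At eEF1alpha1, the GTPase that carries aminoacyl-tRNA and one of the most abundant proteins of the cell, it was only 4.24, 4.02 and 3.92 times the median. These ranges did not overlap within the 250 bp window. With a 500 bp window, tried after the data were seen, eEF1alpha1 reached 8.14 times the median in replicate 1, above eEF1beta at 6.98, and 4.49 and 4.04 in replicates 2 and 3, where eEF1beta stayed higher. The translocase gene eEF2 had 7.70, 6.88 and 7.03 times the median at 129 bp into the gene. eEF5, the hypusine-bearing factor, had 6.63, 5.24 and 6.59 times the median. The last exchange subunit gene, eEF1delta, was not bound, and its regions ranked 6443, 6739 and 15435, just outside the top regions in replicates 1 and 2.

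**Figure D2:**
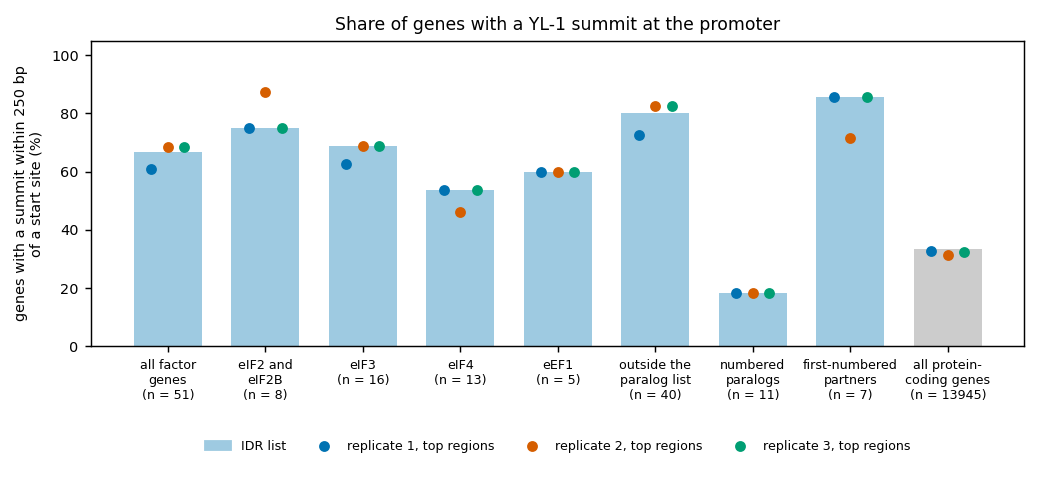
Share of genes with a summit within 250 bp of a start site (vertical axis, percent) in each factor group, with the bar giving the IDR list and the points the top regions of the 3 replicates. The numbered paralogs are at 18.2% in every list, against 33.4% for all protein-coding genes and 80.0% for the factor genes outside that list.

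The plot of shares by group shows that the numbered copies stood apart from the rest. The list of germline-type or duplicated paralogs holds 11 genes, and 2 of them were bound (18.2%, against 33.4% of all genes). Of their 7 first-numbered partners, 6 were bound, with eIF3g1 as the exception. Of all 40 factor genes outside the list, 32 were bound (80.0%), and the replicate shares were 72.5%, 82.5% and 82.5%. All 40 had at least a weak region in the pooled list, which marks 52.2% of all genes. The 8 factor genes with no region in any list were all copies: eIF3d2, eIF3f2, eIF3g2, eIF4E3, eIF4E4, eIF4E5, eIF4E7 and eIF4H2.

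For the unbound copies, the values of the first-numbered partner are on the log2 scale of signal over the list median. The eIF3d2 gene had no region, against 2.68, 1.96 and 2.52 at eIF3d1, whose human counterpart can contact the mRNA cap. The eIF3f2 gene had none, against 2.95, 2.64 and 2.79 at eIF3f1. The eIF3g2 gene had none, and eIF3g1 had none in replicate 1 and 0.65 and 0.91 in replicates 2 and 3. In this last pair neither gene was bound.

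In the cap-binding eIF4E family, 3 of 7 genes were bound (42.9%, against 33.4% of all genes), namely eIF4E1, eIF4E6 and eIF4EHP. With each summit given to the nearest start, 1 of 7 was bound, against 28.2% of all genes. The ubiquitous eIF4E1 had 1.91, 1.57 and 2.11, while eIF4E3, known for its role in male meiosis, eIF4E4, eIF4E5 and eIF4E7 had no region. The eIF4H2 gene had none, against 2.54, 2.00 and 1.88 at eIF4H1. For eEF1alpha2, a second gene of the tRNA carrier, 1 weak region of replicate 2 was listed at 0.13, against 2.01 at eEF1alpha1 in the same library. With a 500 bp window eEF1alpha2 had a region in each replicate, at -0.03, 0.13 and 0.35, against 3.03, 2.17 and 2.01 at eEF1alpha1. The mean difference there, eEF1alpha2 minus eEF1alpha1, was -2.25 ± 0.72 (SD, n = 3), lower in 3 of 3 replicates with an exact two-sided sign-flip p of 0.25. For the 8 copies with no region, the nearest IDR summit was between 9028 bp (eIF4E5) and 80329 bp (eIF3g2) away.

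The 2 bound copies both shared their window with another gene. At eIF4E6 the log2 values were 1.29, 1.53 and 2.02, against 1.91, 1.57 and 2.11 at eIF4E1. The mean difference, eIF4E6 minus eIF4E1, was -0.25 ± 0.32 (SD, n = 3), lower in 3 of 3 replicates with an exact two-sided sign-flip p of 0.25, the smallest p that 3 pairs allow. The summit lay 114 bp upstream of eIF4E6 and 52 bp from CG1951, a divergent gene whose start is 62 bp from that of eIF4E6. At eIF4G2, a scaffold protein needed for male meiosis, the values were 1.61, 2.77 and 2.72, against 1.59, 0.27 and 1.53 at eIF4G1, the general scaffold, which lies on chromosome 4. The mean difference, eIF4G2 minus eIF4G1, was 1.24 ± 1.24 (SD, n = 3), with 0.03 in replicate 1 and an exact two-sided p of 0.25. Without replicate 2, in which eIF4G1 ranked 11567, the mean was 0.61, and without replicate 1 it was 1.84. The starts of eIF4G2 coincide with those of CG33111, so its peak cannot be divided between them.

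**Figure D3:**
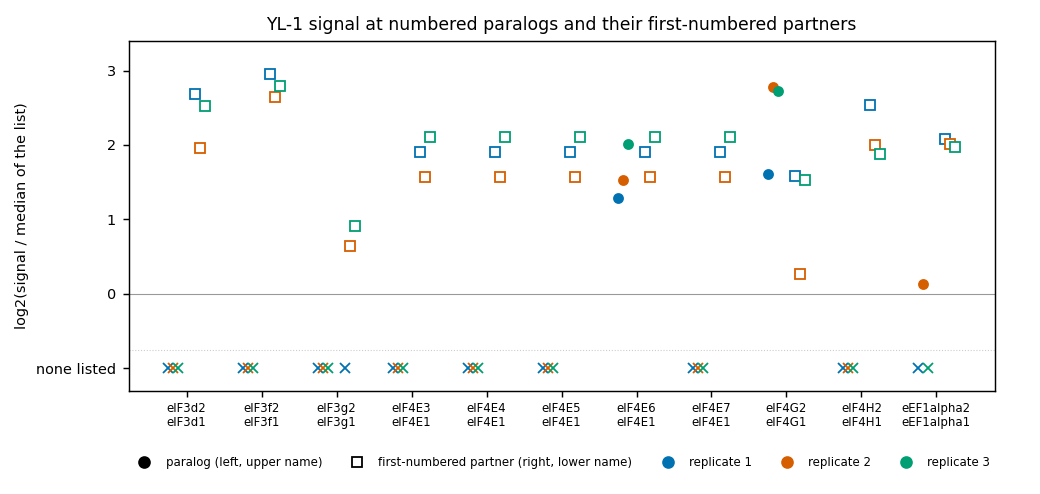
Signal over the list median (vertical axis, log2) at each numbered paralog (filled circles, left) and its first-numbered partner (open squares, right) in the 3 replicates, with crosses for genes without a listed region. eIF4E6 and eIF4G2 are the paralogs with values in all 3 replicates, and eIF4E1 appears once for each of its 5 paralogs.

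Where a neighbour's start falls in the same window, the peak cannot be given to one gene from these lists. Counting protein-coding neighbours only, that was so for 10 of the 34 bound factor genes (29.4%), against 42.9% of all bound genes. For 4 of them the neighbour was nearer to the summit. The summit at eIF2Bdelta was 47 bp from its start, against 11 bp from that of roh. The summit at eIF2Bepsilon was 64 bp from its start, against 43 bp from that of Ocrl. The other two were eIF4E6, beside CG1951, and eIF4EHP, beside CG18428. The remaining 6 shared their window with RpL28 at eIF1, Vps39 at eIF1A, Su(var)3-9 and Set at eIF2gamma, CG1074 at eIF3a, senju at eIF3h and CG33111 at eIF4G2. With each summit given to the nearest start, 30 factor genes (58.8%) were bound, against 28.2% of all genes.

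The 8 unbound factor genes outside the copies fell into those beside a peak nearer to a neighbour's start and those far from any. Near the exchange factor subunit gene eIF2Bbeta stood the peak of rank 3 of the whole list (signal 1343), 43 bp from the start of Ugalt and 676 bp upstream of eIF2Bbeta. At eIF2Bbeta itself the regions ranked 19190, 12238 and 10370. At eIF3l, a non-core subunit, the nearest peak was 547 bp away and 125 bp from Nrx-IV. At eIF5 it was 654 bp away and 72 bp from exd. No factor gene had its nearest summit between 223 bp and 547 bp, so the call of 250 bp divided none that were close to it. The limit did decide which peak gave the signal: eIF1 and eIF2gamma had stronger peaks just outside it, at 255 bp and 253 bp.

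The nearest summit was 1411 bp from eIF3g1, a peripheral subunit, 1624 bp from eIF2D, known from mammals as an initiation and recycling factor, and 2590 bp from eIF2Balpha, a regulatory subunit of eIF2B. The ranks at eIF2D were 7408, 29551 and 5092, and those at eIF2Balpha were 9311, 5685 and 13685, so each reached the top regions in 1 replicate. At eIF3g1 they were 8020 and 6817 in replicates 2 and 3, with no region in replicate 1. For eEF1delta the nearest summit was 6934 bp away, at me31B. The helicase cofactor gene eIF4B lies near the centromere end of 3L, 2737328 bp from the nearest IDR summit, and had only a pooled region of rank 25920.

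**Figure D4:**
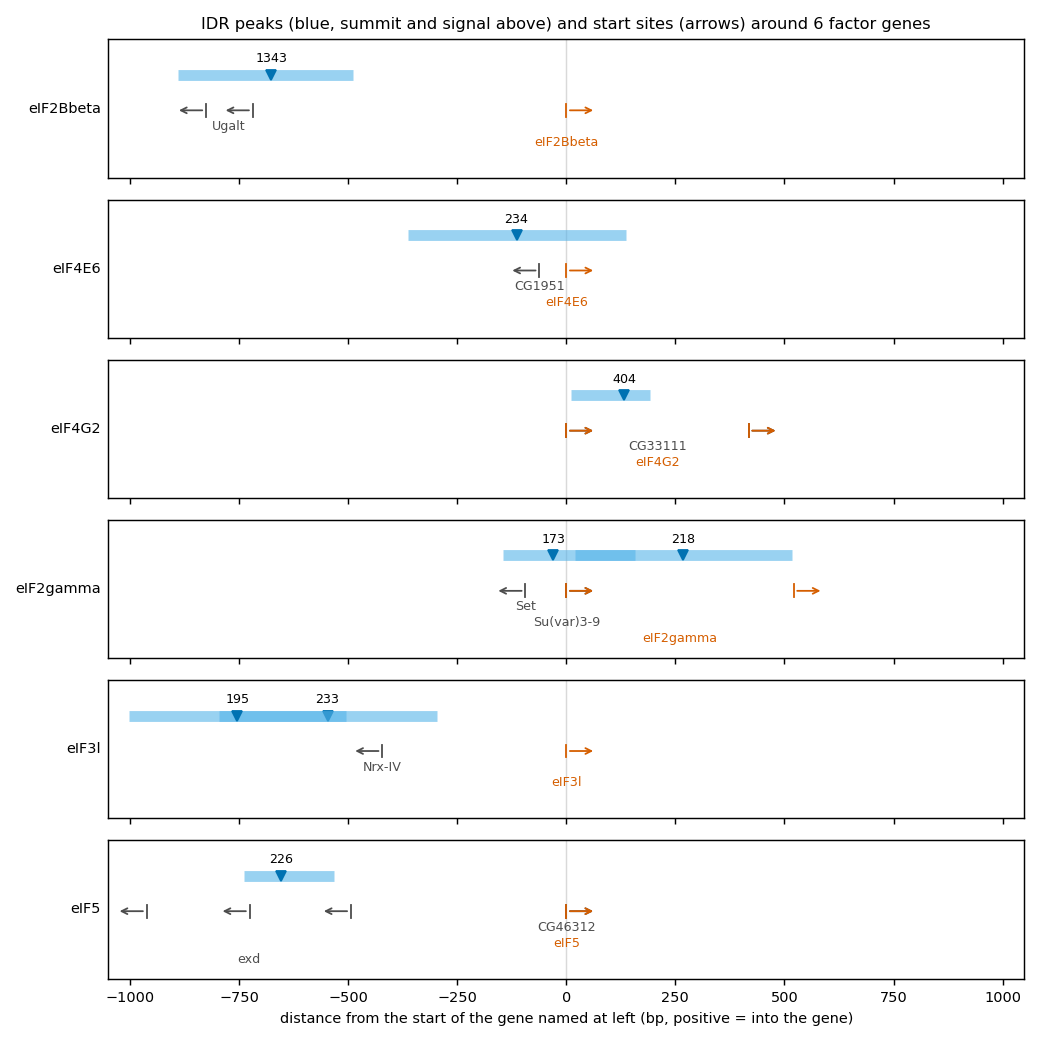
IDR peaks (blue bars, with the summit as a triangle and the signal above it) and annotated start sites (arrows in the direction of transcription, factor genes in orange and neighbours in grey) around 6 factor genes, by distance in bp from the start of the gene named at the left. At eIF2Bbeta, eIF3l and eIF5 the peaks lie on the side of Ugalt, Nrx-IV and exd, at eIF4E6 the peak spans both divergent starts, both starts of eIF4G2 and the first start of eIF2gamma coincide with those of another gene, and so does the start of eIF5 with that of CG46312.

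The maps of 6 loci show the 3 arrangements. At eIF2Bbeta, eIF3l and eIF5 the peaks lie nearer to the start of a divergent neighbour. At eIF4E6 the peak lies over a divergent pair. At eIF4G2 and eIF2gamma a peak lies at a start shared with another gene (both starts of eIF4G2, the first of eIF2gamma). The mapped start of eIF5 is shared as well, with CG46312, and has no IDR peak.

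Summits at factor genes lay more often inside the gene than those of bound genes in general. The summit was downstream of the nearest start for 22 of 34 (64.7%), against 39.1% of all bound genes. For eIF3 it was downstream for 10 of 11, with eIF3a as the exception, while for eIF2 with eIF2B it was downstream for 2 of 6. The median distance was 72 bp, close to the 68 bp of all bound genes. Windows shared with another gene were fewer among the bound factor genes, 29.4% against 42.9% of all bound genes. The part of this in the summit positions was not tested. Summits lay between 128 bp and 144 bp into the gene at eIF3c, eIF3j, eIF3k, eIF3m, eIF4G1, eIF4G2, eIF4H1, eEF1beta and eEF2. These bounds were drawn around summits already seen. Of all bound genes, 2.60% had a summit between 125 bp and 150 bp into the gene. Summit positions have limited precision, because 70.1% of IDR peaks have their summit at the midpoint of the region, give or take 1 bp.

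**Figure D5:**
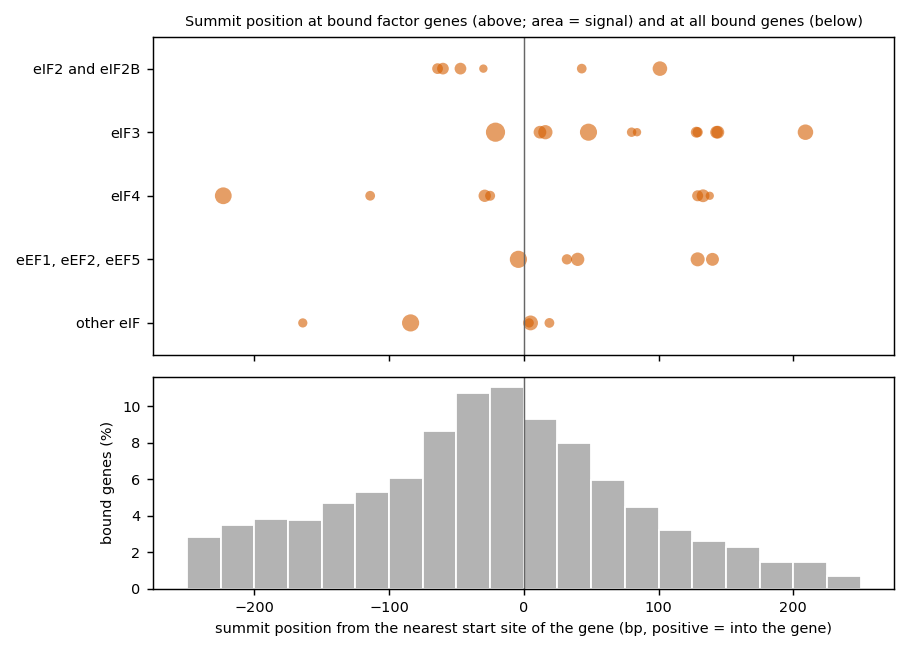
Position of the IDR summit from the nearest start of each bound factor gene (horizontal axis, bp, positive into the gene), by group with point area proportional to signal (upper panel), and the same for all bound genes as percent per 25 bp (lower panel). All bound genes peak just upstream of the start, while 10 of the 11 eIF3 summits lie to its right.

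The plot of summit positions shows this shift by group. It was described from single summits per gene and was not tested.

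Promoter sequence was compared from 250 bases before to 50 bases after the start nearest the summit, or the most upstream start of genes without one, on both strands. The DRE, TATCGATA, lay in 9 of 34 bound factor promoters (26.5%) and in 4 of 17 unbound ones (23.5%), against 18.8% of all bound genes and 9.32% of all genes. Of the 11 DRE matches at bound factor genes, 10 started within 100 bases before the start, and of the 4 at unbound ones 3 did. They lay at 38 bases in eIF3a, 41 in eEF1gamma, 8 in eIF3f1 and 13 in eIF2alpha. Match positions over all genes were not counted. Unbound genes with a DRE were eEF1delta, eIF2Bbeta, eIF3l and eIF4B, so a match did not separate bound from unbound factor genes. Among the copies, eIF4E6 was the 1 gene of 11 with a DRE.

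The GGTCACAC core of Ohler motif 1, the site of the factor M1BP, lay in 8 bound factor promoters (23.5%) and 1 unbound one, against 18.3% of all bound genes and 7.93% of all genes. The TCT core, counted as CTTT with its C within 5 bases of the start on the gene strand, lay in 7 bound factor promoters (20.6%) and in 0 of 17 unbound ones, against 5.54% of all bound genes and 5.74% of all genes. Those 7 were eEF1alpha1, eEF2, eEF5, eIF3f1, eIF3i, eIF3m and eIF4A. Except at eIF3m, which also had a match 1 base after the start, the C lay 4 or 5 bases from the annotated start. CAGCTG, the E-box of Ohler motif 5, lay in 8.82% of bound factor promoters, against 25.8% of all bound genes and 18.1% of all genes. GAGAG, the letters of the GAGA factor site, lay in 14.7%, against 23.7% of all bound genes and 30.1% of all genes. TATAAA lay in 41.2% of bound factor promoters, against 44.7% of all bound genes and 45.5% of all genes. CANCNCTNA lay in 17.6%, against 20.8% of all bound genes and 14.2% of all genes. A match is a string of letters and not a measured site, and these shares were not tested.

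Other genes of translation, from a list of 20 outside the naming rule, were bound in 16 cases (80%), against 33.4% of all genes. Top regions of all 3 replicates marked 12 of the 20, against 23.9% of all genes. The median signal of the 16 bound genes, 230, was below that of the bound factor genes and below the 252 of all bound genes. The strongest was Rack1, a protein of the small ribosomal subunit, with a signal of 584 and ranks of 179, 102 and 153. The peak of crc, the ATF4 factor that responds to eIF2alpha phosphorylation, had a signal of 408. Lk6, the kinase of eIF4E, reached 360, and pix, the ribosome recycling ATPase, reached 324. Bound with lower signals were Thor (the eIF4E-binding protein), the kinases of eIF2alpha Gcn2 and PEK, the poly(A)-binding protein gene pAbp, the release factor genes eRF1 and eRF3, and PPP1R15, mxt, Paip2, DENR, Dhps and nero. The last pair modify the product of eEF5 with hypusine. NAT1, cup, MCTS1 and eEFSec were not bound. NAT1, a relative of eIF4G, had its nearest IDR summit (rank 871) at 413 bp, and top regions within 250 bp in replicates 1 and 2 (ranks 2930 and 266). eEFSec, the selenocysteine elongation factor, had an IDR summit of signal 207 at 293 bp upstream, outside the window, and no region within it in any list.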

How the data were processed

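Peaks came from anti-GFP ChIP-seq of 3 biological replicates of YL-1-GFP embryos, with chromatin sheared to 200 to 800 bp, per the labels. The authors deposited region lists in narrowPeak layout for each library and for the pooled libraries, against control libraries not analysed here, and an IDR-thresholded list. For the aligner and the peak caller, names and versions were not given in the sources used here. Each region's signal is as the authors deposited it, and its scale differs between lists. The −log10 q-value deposited by the authors was 4.13 at every IDR peak and was not used for ranking. The authors also deposited a summit offset, which gave summit positions as region start plus offset. The summit was the middle of the region for 97.3% to 98.8% of replicate regions. No list gives read totals, so the depth is unknown and no interval for counting error was made. Lists in the dm3 build were not used.

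Gene models were those of Ensembl 115 on Release 6, and only start sites of protein-coding genes were used. Bases were read from the RefSeq genome of the same build, in which all 51 genes have the same coordinates. Python 3.11.15 with numpy 2.4.6, pandas 2.3.3, scipy 1.17.1 and matplotlib 3.10.9 was used, and the summit assignment was tested on simulated regions. The genes, the groups, the list of paralogs and the list of other translation genes were chosen with earlier results of these data known, so no p-value over a list is given. By the rule for named genes, values are given for the 3 strongest bound genes of the groups eIF2 with eIF2B, eIF3, eIF4 and eEF1, for eIF5, eIF6 and eEF2, for the paralogs and their partners, for unbound genes and for genes bound through a summit nearer to a neighbour. The other values were added after they were seen. Other settings were windows of 100, 500 and 1000 bp, the most upstream start alone, the nearest start alone, the peak interval over the start, stronger or shared peaks, all 30000 pooled regions, other numbers of top regions, replicate ranks, and each replicate left out. Leaving a replicate out of the means and the 500 bp window for eEF1 genes were added after the data were seen.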

Additional observations from a re-analysis of the deposited data

How the results depend on the processing

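Across 110 values under other settings, 103 kept their direction and stayed within 1.5 times the reported count or within 1 SD of the reported value. The number of bound factor genes lay between 23 (a 100 bp window, where 23.6% of all genes are bound) and 42 (all pooled regions, 52.2% of all genes). Without a replicate it lay between 32 and 34. The 7 values that moved were these. With the 100 bp window, 7 eIF3 genes were bound in place of 11, 2 eIF4 genes in place of 7, and 0 paralogs in place of 2. With each summit given to its nearest start, 1 paralog was bound (28.2% of all genes). With the peak interval required to cover the start, it was also 1 (31.3% of all genes). With the top 3000 regions of each replicate, the mean share of factor genes was 56.2%, against 20.5% for all genes. With the top 10000 it was 71.9%, against 39.7%. The smaller and larger windows and numbers of regions change the counts by construction. The replicate mean of 66.0% lay between 64.7% and 68.6% without 1 replicate. The difference of eIF4G2 minus eIF4G1 was 0.78 with a 500 bp window, where eIF4G1 has a stronger region in replicate 2, and that of eIF4E6 minus eIF4E1 was -0.36 to -0.07 without 1 replicate. At 100 bp the eIF4 share fell below that of all genes (15.4% against 23.6%). No paired analysis was possible because the series has 1 group of samples; the paired differences given are between 2 genes of 1 library. The unknown depth and lists of fixed length limit how weak regions can be read: a missing region means that none of the listed 30000 lay there.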

Other observations

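Several factor genes had IDR peaks inside the gene and outside the promoter window. The strongest lay in an intron of eEF1alpha1, 366 bp from its nearest start, with a signal of 370 and rank 801, above the promoter peak of that gene (262, rank 2045). A further intronic peak of eEF1alpha1 had a signal of 165. The peak in an intron of eIF1, 255 bp from its start, had a signal of 256 against 209 for its promoter peak. At eIF2gamma the peak at 253 bp (218) was likewise above the one at the start (173). Weaker inner peaks lay in introns of eEF5, eIF4EHP, eIF4G2 and eIF5B, in a coding exon of eIF3b and in a non-coding exon stretch of eIF4G1. The farthest, in eIF5B, was 27702 bp from a start with a signal of 139. No start of another protein-coding gene lay within the window of any of these 10 peaks, and starts of non-coding genes were not searched.

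By chromosome arm, bound factor genes were 11 of 12 on 2R (all genes 33.9%), 4 of 5 on 2L (31.5%), 9 of 15 on 3R (35.4%), 6 of 11 on 3L (33.5%), 3 of 7 on X (31.1%) and 1 of 1 on chromosome 4 (46.3%). The paralogs without a region lie on 3R, 3L, 2R and X.

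GC content of the 300 promoter bases had a median of 39.7% at bound factor genes and 33.3% at unbound ones. Over all bound genes the median was 36.7%, below the 38.0% of all genes. The part of GC content in the difference between bound and unbound factor genes was not tested.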
